A study of Homo sapiens with 24 samples.

Results

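The 9 solute carriers described here move amino acids across the plasma membrane and are known targets of cellular stress responses. They are SLC7A5, SLC3A2, SLC7A1, SLC7A11, SLC38A2, SLC1A4, SLC1A5, SLC6A9 and SLC43A1. They were chosen by name, with earlier results of these data known, and make up 9 of the 18274 genes measured. Each was represented by its probe set, a group of array probes summarised into 1 value, with the highest mean over all 24 arrays. Huh7.5.1 cells (a line from human hepatoma) received either silymarin, a milk thistle seed extract, or its solvent DMSO, and total RNA of each sample went onto its own Affymetrix Human Gene 1.0 ST array. At 4 h there were 4 arrays labelled silymarin and 4 labelled DMSO, at 8 h there were 3 and 5, and at 24 h again 3 and 5. All sample titles carry the word novirus. The labels give no silymarin dose and do not say whether replicates came from separate cultures, so p-values measure only the spread between these samples, which may be technical.

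When amino acids run short or the endoplasmic reticulum is under stress, kinases phosphorylate the translation factor eIF2alpha, general protein synthesis slows and the transcription factor ATF4 is made. ATF4 raises the transcription of amino acid transporters, of enzymes that make amino acids and of tRNA synthetases, a programme known as the integrated stress response. Oxidative stress acts on SLC7A11 also through the transcription factor NRF2. In hepatoma cells these carriers feed protein synthesis, the mTORC1 growth pathway and the supply of cysteine for glutathione.

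No difference between silymarin and DMSO arrays passed limma's test for any of the 9 transporters at any time point after adjustment over all genes. What the 9 genes showed was a wide spread inside the labelled groups. SLC7A11 spanned 2.23 on the log2 scale over the 24 arrays, a 4.68-fold range, and 7 further transporters were high and low in much the same arrays as SLC7A11. SLC38A2 was the exception, with a range of 0.39 on the log2 scale. In bulk RNA such as this, a change in every cell and a change in the share of cells that carry the RNA cannot be told apart.

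Array medians lay between 7.04 and 7.18 on the log2 scale, and precision is limited by how many arrays each group holds. Values are log2 expression values, so that a difference of 1 is a 2-fold change, and values of different genes come from different probes, so that they place a gene coarsely and are not read as relative abundance. All 9 transporters had means above 6.27, the 25th percentile of all genes. Of the hepatocyte marker list, 9 of the 10 genes were measured and all 9 lay above that level, with means between 11.44 for AHSG and 13.34 for ALB in these cells labelled as hepatoma. Of the markers of other cells, 1 of 5 endothelial, 3 of 5 leukocyte and 4 of 5 fibroblast or stellate genes lay above it, with the leukocyte markers LYZ at a mean of 12.29 and PTPRC at 4.33 and the fibroblast marker DCN at 3.82.

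Promoter sequences are shown because most members varied together over the arrays. RefSeq windows of 250 bases before the start site on GRCh38.p14 were available for 8 members, 14 windows in all, and SLC7A11 is named only. They were searched on both strands for TGATGNAA, the C/EBP-ATF response element that ATF4 binds, for TGACNNNGC, the antioxidant response element of NRF2, and for CACGTG, the E-box. Among all 35116 windows 3.14% hold the first, 10.9% the second and 6.34% the third, and a match is a description of letters, not of a binding site. No match in the members overlapped another. Windows at the outermost start site are shown for SLC7A5, SLC7A1 and SLC43A1, the members in which that window holds a match, and for SLC38A2, the member that varied least. Capitals mark the E-box in SLC7A5 and SLC43A1 and the antioxidant element in SLC7A1. The window of SLC38A2 holds none of the 3. Bases farther before the start sites, and those after them inside the genes, were not searched in any member unless another window covered them.
SLC7A5, chr16:87869508-87869757, minus strand: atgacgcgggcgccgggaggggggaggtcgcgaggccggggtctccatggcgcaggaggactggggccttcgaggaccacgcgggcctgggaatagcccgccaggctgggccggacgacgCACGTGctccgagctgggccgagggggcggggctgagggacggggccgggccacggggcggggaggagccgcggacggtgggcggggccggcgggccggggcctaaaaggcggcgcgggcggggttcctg
SLC7A1, chr13:29595689-29595938, minus strand: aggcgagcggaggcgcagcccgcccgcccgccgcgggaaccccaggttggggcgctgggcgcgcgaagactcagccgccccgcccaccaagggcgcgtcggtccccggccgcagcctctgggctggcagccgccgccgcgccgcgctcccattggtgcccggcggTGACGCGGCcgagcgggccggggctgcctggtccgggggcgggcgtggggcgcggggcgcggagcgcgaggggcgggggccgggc
SLC43A1, chr11:57515703-57515952, minus strand: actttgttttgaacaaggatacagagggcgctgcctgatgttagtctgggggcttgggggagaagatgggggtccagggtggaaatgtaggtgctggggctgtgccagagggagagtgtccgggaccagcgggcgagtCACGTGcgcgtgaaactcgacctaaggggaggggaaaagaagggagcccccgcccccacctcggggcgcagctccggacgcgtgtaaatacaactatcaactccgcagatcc
SLC38A2, chr12:46372774-46373023, minus strand: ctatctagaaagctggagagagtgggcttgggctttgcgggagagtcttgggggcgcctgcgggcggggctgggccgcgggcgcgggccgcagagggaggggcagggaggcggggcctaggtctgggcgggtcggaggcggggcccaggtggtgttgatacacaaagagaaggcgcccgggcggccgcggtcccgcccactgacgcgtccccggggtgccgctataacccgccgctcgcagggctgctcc

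SLC1A5 holds 1 match of each element, and shorter pieces around the matches are enough to show them. The first is the only member window with the C/EBP-ATF element, 97 bases before an internal start site. SLC3A2 has an antioxidant element 37 bases before an alternative start site.
SLC1A5, C/EBP-ATF element, chr19:46784893-46784922, minus strand: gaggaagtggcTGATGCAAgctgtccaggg
SLC1A5, antioxidant element on the opposite strand, chr19:46787385-46787414, minus strand: cctggatcttGCGAGGTCAgctcccgctcc
SLC1A5, E-box, chr19:46787326-46787355, minus strand: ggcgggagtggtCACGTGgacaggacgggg
SLC3A2, antioxidant element, chr11:62881652-62881681, plus strand: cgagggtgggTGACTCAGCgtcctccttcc
Of the 14 member windows 1 holds the C/EBP-ATF letters, 3 the antioxidant letters and 3 the E-box, against the shares of all windows given above, and the widely varying SLC1A4 and SLC6A9 hold none of them in these windows.

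The first group of members builds the heteromeric exchangers. SLC3A2 (chromosome 11, 62856109 to 62888860 in GRCh38.p14) is the heavy chain 4F2hc, or CD98, which carries its light chains to the cell surface. SLC7A5 (chromosome 16, 87830023 to 87869507) is the light chain LAT1, which exchanges leucine and other large neutral amino acids. SLC7A11 (chromosome 4, 138164097 to 138242349) is the light chain xCT, which imports cystine in exchange for glutamate. SLC7A1 (chromosome 13, 29509414 to 29595688) is CAT1, a carrier of arginine and lysine that works without the heavy chain.

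SLC7A11 had log2 values of 10.77, 9.90, 10.01 and 9.29 in the silymarin arrays at 4 h, against 10.77, 9.39, 9.18 and 10.55 in the DMSO arrays. At 8 h its values were 10.66, 9.37 and 11.04 with silymarin, against 10.68, 9.58, 8.93, 11.03 and 11.16 with DMSO. At 24 h its values were 11.04, 9.63 and 10.13 with silymarin, against 9.59, 9.87, 10.84, 9.28 and 9.62 with DMSO. High and low arrays occurred in each of the 6 groups, and the silymarin and DMSO ranges overlapped at every time.

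SLC7A1 had log2 values of 9.98, 9.24, 9.56 and 8.92 in the silymarin arrays at 4 h, against 9.80, 9.12, 8.94 and 9.53 in the DMSO arrays. At 8 h it had 9.62, 9.05 and 9.99 with silymarin, against 9.81, 9.16, 8.90, 10.04 and 10.26 with DMSO. At 24 h it had 10.23, 9.45 and 9.67 with silymarin, against 8.96, 9.51, 9.88, 8.88 and 9.10 with DMSO. The groups overlapped at every time, and its correlation with SLC7A11 over the 24 arrays was a Pearson r of 0.96.

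SLC7A5 had log2 values of 11.78, 11.62, 11.75 and 11.23 in the silymarin arrays at 4 h, against 11.76, 11.42, 11.41 and 11.70 in the DMSO arrays. At 8 h it had 11.56, 11.50 and 12.00 with silymarin, against 11.77, 11.51, 11.41, 11.78 and 12.08 with DMSO. At 24 h it had 11.99, 11.61 and 11.87 with silymarin, against 11.26, 11.64, 11.82, 11.42 and 11.28 with DMSO. At 24 h 2 of the 3 silymarin arrays lay above all 5 DMSO arrays, and the third lay inside the DMSO range. The heavy chain SLC3A2 ran between 11.35 and 11.89 over all 24 arrays, a narrower range than that of SLC7A5 or SLC7A11.

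The second group carries small neutral amino acids, glycine and large neutral amino acids without the heavy chain. SLC1A4 (chromosome 2, 64988479 to 65023865) is ASCT1, a sodium-dependent exchanger of alanine, serine and cysteine. SLC1A5 (chromosome 19, 46774883 to 46788594) is ASCT2, the related exchanger that brings in glutamine. SLC6A9 (chromosome 1, 43996483 to 44031462) is the glycine transporter GlyT1. SLC43A1 (chromosome 11, 57484534 to 57515702) is LAT3, a facilitative carrier of large neutral amino acids. SLC38A2 (chromosome 12, 46358188 to 46372773) is SNAT2, a sodium-coupled carrier of small neutral amino acids that is also regulated at the level of its protein.

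SLC6A9 had log2 values of 8.91, 8.93, 9.38 and 8.72 in the silymarin arrays at 4 h, against 9.71, 8.64, 8.95 and 9.03 in the DMSO arrays. At 8 h it had 8.995, 8.95 and 9.42 with silymarin, against 9.80, 8.90, 8.61, 9.92 and 9.63 with DMSO. At 24 h it had 9.60, 9.01 and 9.53 with silymarin, against 8.62, 9.11, 9.06, 8.84 and 8.59 with DMSO. At 24 h 2 silymarin arrays lay above all 5 DMSO arrays, while at 8 h the 3 highest arrays were all DMSO.

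SLC1A4 had log2 values of 9.86, 9.36, 9.58 and 9.33 in the silymarin arrays at 4 h, against 10.16, 9.24, 9.28 and 9.72 in the DMSO arrays. At 8 h it had 9.86, 9.38 and 10.22 with silymarin, against 10.27, 9.39, 9.16, 10.49 and 10.44 with DMSO. At 24 h it had 10.25, 9.52 and 9.69 with silymarin, against 9.27, 9.59, 9.94, 9.26 and 9.24 with DMSO. Its high arrays were largely those of SLC7A11. SLC1A5 ran between 10.21 and 11.02 over the 24 arrays, and SLC43A1 between 11.85 and 12.49. A dimmer probe set of SLC1A5, with a mean of 7.41, had a Pearson r of 0.62 with the one used.

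SLC38A2 had log2 values of 12.37, 12.43, 12.39 and 12.13 in the silymarin arrays at 4 h, against 12.12, 12.23, 12.29 and 12.30 in the DMSO arrays. At 8 h it had 12.36, 12.27 and 12.19 with silymarin, against 12.17, 12.22, 12.16, 12.31 and 12.31 with DMSO. At 24 h it had 12.24, 12.24 and 12.37 with silymarin, against 12.32, 12.24, 12.51, 12.30 and 12.18 with DMSO. At 4 h 3 of the 4 silymarin arrays lay above all 4 DMSO arrays and the fourth lay near the lowest of them.

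**Figure D1:**
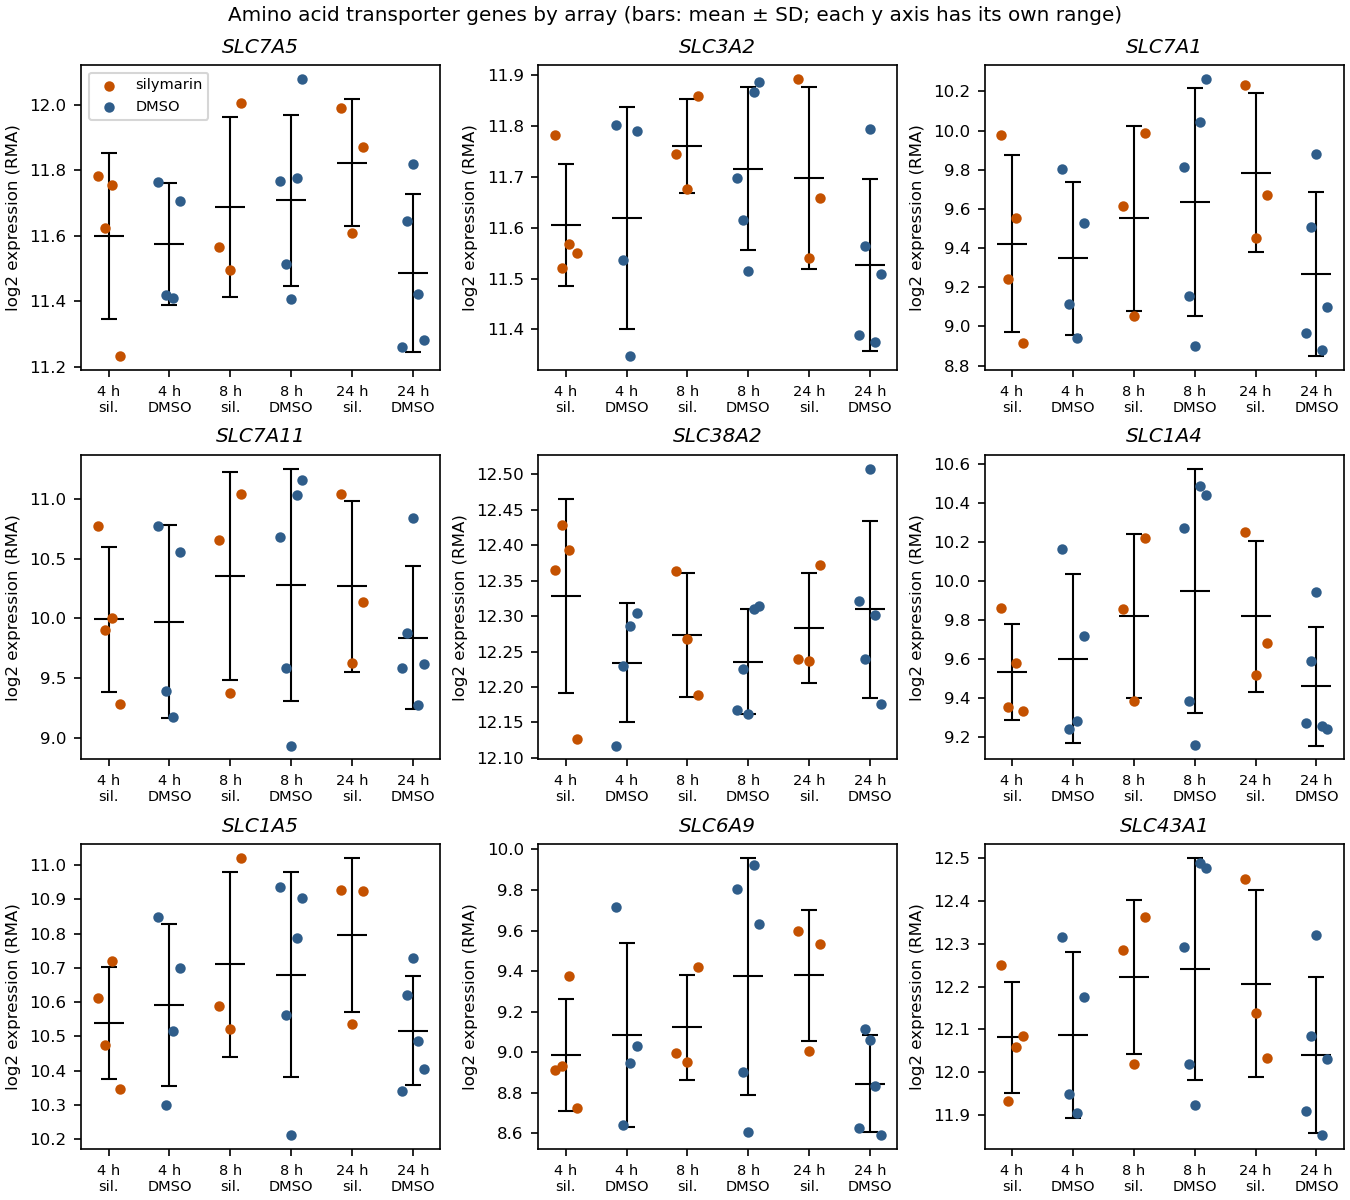
Log2 expression of each of the 9 transporters in every array, by time in h, with silymarin left of DMSO at each time; points are arrays, bars are group means with SD, and each panel has its own axis range. SLC7A11 spread between 8.93 and 11.16 and SLC38A2 between 12.12 and 12.51, with silymarin and DMSO arrays overlapping at every time for all 9 genes.

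The size of the spread set the members apart from one another. The standard deviation within groups was 0.78 for SLC7A11, which put it at the 99.96th percentile of all 18274 genes, against a median of 0.123 over all genes. It was 0.47 for SLC7A1, 0.43 for SLC1A4 and 0.39 for SLC6A9, at the 99.45th, 99.21st and 98.96th percentiles. The exchanger subunits SLC7A5 and SLC3A2 had 0.24 and 0.16, the glutamine carrier SLC1A5 had 0.23 and SLC43A1 had 0.20. SLC38A2, at 0.10, lay at the 28.61st percentile. Of the 9 members 6 lay above the 90th percentile of all genes and 8 above the median.

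Differences between the 6 labelled groups accounted for little of the spread of the widest member. The share of variation lying between groups was 7.6% for SLC7A11 and reached 26.01% for SLC6A9, against a median of 23.17% over all genes. For 7 of the 9 members the share lay below that median.

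**Figure D2:**
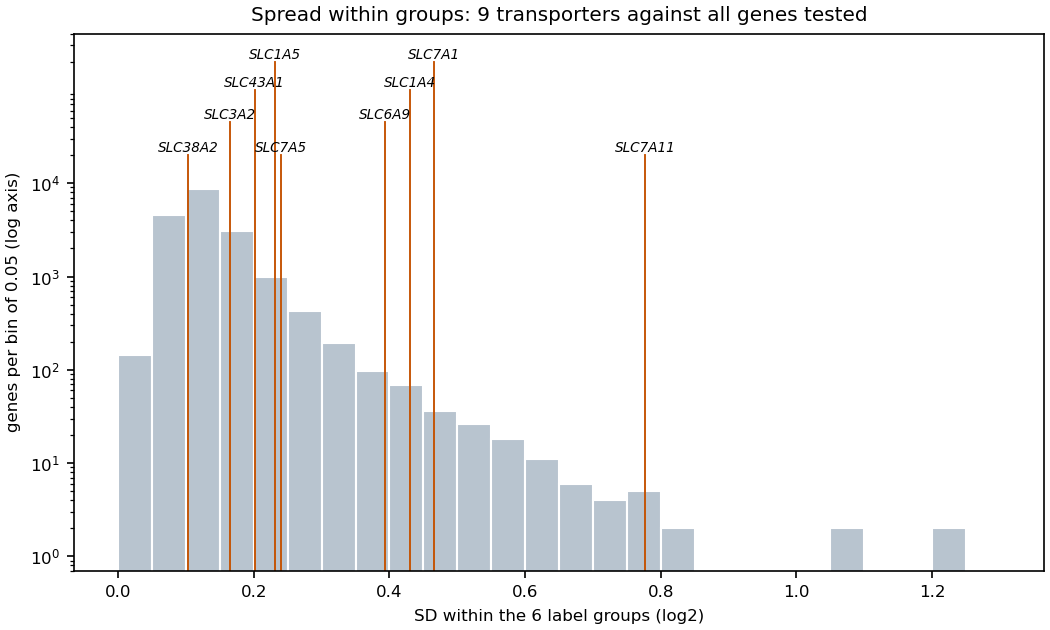
Histogram of the standard deviation within groups (log2) of all 18274 genes, with the 9 transporters marked by lines. SLC7A11 stands at 0.78 and SLC38A2 at 0.10, and the median of all genes is 0.123.

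The transporters other than SLC38A2 were high and low largely in the same arrays. All 8 lay above their own means in 6 arrays, and none of them did in 10 arrays, while the remaining 8 arrays were mixed. The 6 arrays were 1 DMSO array at 4 h, 1 silymarin array and 3 DMSO arrays at 8 h, and 1 silymarin array at 24 h. Over the 28 pairs of these 8 genes, Pearson r over the 24 arrays ran from 0.68 to 0.96 with a median of 0.87, and Spearman rho from 0.76 to 0.97. SLC38A2 had Pearson r between 0.01 and 0.27 with the other 8 over all 24 arrays. These correlations describe arrays that share hybridisation, normalisation and labels, and no p is given for them.

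**Figure D3:**
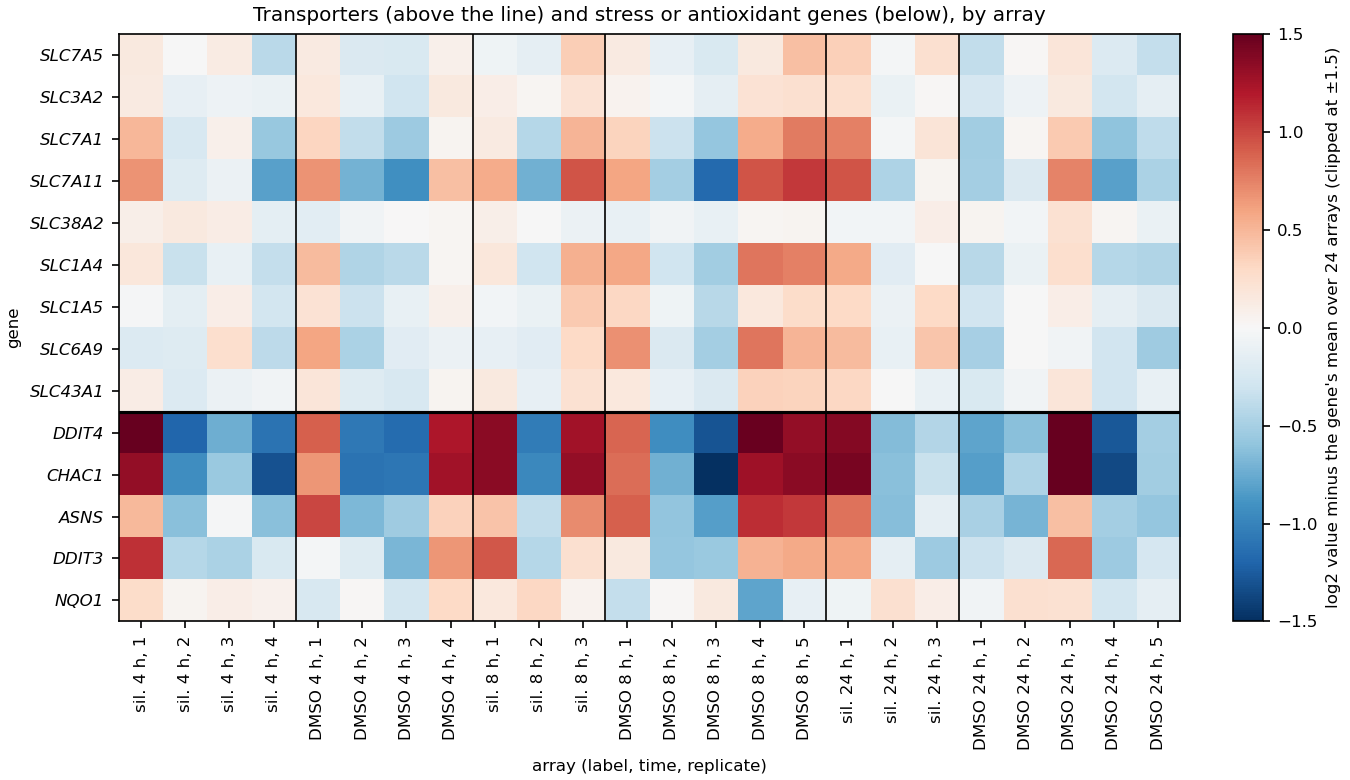
Each transporter in each of the 24 arrays as the log2 value minus that gene's mean over the arrays, with arrays ordered by time and label, silymarin before DMSO, and with DDIT4, CHAC1, ASNS, DDIT3 and NQO1 below the line; colours are clipped at the ends of the scale. The transporters other than SLC38A2 take like colours within an array, with 6 arrays in which all 8 lie above their means and 10 in which none does.

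All 6 of those arrays were also high for DDIT4, a stress-induced inhibitor of mTORC1 and a known ATF4 target, and the 10 arrays with none of the 8 above its mean were all low for it. DDIT4 had log2 values of 10.34, 7.60, 8.05 and 7.69 in the silymarin arrays at 4 h, against 9.69, 7.72, 7.64 and 10.01 in the DMSO arrays. At 8 h it had 10.14, 7.74 and 10.05 with silymarin, against 9.67, 7.86, 7.50, 10.28 and 10.11 with DMSO. At 24 h it had 10.16, 8.15 and 8.35 with silymarin, against 8.00, 8.17, 10.30, 7.52 and 8.28 with DMSO.

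DDIT4 values left a gap of 1.32 between 8.35 and 9.67, with 10 arrays above it and 14 below. Arrays above the gap occurred in every group, as 1 of 4 silymarin and 2 of 4 DMSO arrays at 4 h, 2 of 3 and 3 of 5 at 8 h, and 1 of 3 and 1 of 5 at 24 h. The 10 arrays with high DDIT4 were also the 10 highest arrays for SLC7A11, SLC3A2, SLC1A4 and SLC43A1. The share of all genes that separate these arrays in the same way is not given, so the separation is not read as particular to these members. SLC7A11 ran between 10.55 and 11.16 in them and between 8.93 and 10.13 in the other 14. SLC7A5, SLC7A1, SLC1A5 and SLC6A9 overlapped across the gap, as did SLC38A2.

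Pearson r with DDIT4 over the 24 arrays was 0.95 for SLC7A11, 0.91 for SLC43A1 and 0.88 for each of SLC1A4, SLC3A2 and SLC7A1. It was 0.73 for SLC7A5, 0.71 for SLC1A5, 0.61 for SLC6A9 and 0.18 for SLC38A2. Since DDIT4 falls into separate levels, the values within each side of the gap were also computed. For SLC7A11 they were 0.33 over the 10 arrays above and 0.73 over the 14 below. For SLC7A1 they were 0.32 and 0.74, for SLC43A1 0.24 and 0.64, for SLC3A2 0.41 and 0.37 and for SLC7A5 0.10 and 0.41. Above the gap they were negative for 3 members, at -0.46 for SLC1A5, -0.45 for SLC6A9 and -0.15 for SLC1A4, where below it they were 0.58, 0.47 and 0.67. Between the 8 transporters other than SLC38A2, the median over the 28 pairs was 0.72 on either side, with a lowest value of 0.32 above the gap and 0.34 below it. SLC38A2 with the other 8 had r between -0.65 and -0.03 above the gap, and between -0.25 and 0.64 below it, with a median of 0.52 and 6 of 8 above 0.

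Relations with other stress genes were set side by side for the 10 arrays above the gap and the 14 below it. Above the gap, r with ASNS, the asparagine synthetase and a classical ATF4 target, was positive for all 8 members other than SLC38A2, from 0.43 for SLC3A2 to 0.95 for SLC6A9, and was -0.54 for SLC38A2. Below the gap r with ASNS ran from 0.15 for SLC43A1 to 0.74 for SLC1A5, and was 0.74 for SLC6A9 and 0.63 for SLC38A2. Spearman rho with ASNS below the gap was -0.13 for SLC43A1, 0.45 for SLC1A5, 0.35 for SLC6A9 and 0.58 for SLC38A2. With DDIT3, the stress-induced transcription factor CHOP, r above the gap was -0.77 for SLC1A5, -0.76 for SLC6A9, -0.54 for SLC1A4 and 0.87 for SLC38A2, and lay between -0.25 and -0.05 for the other 5. Below the gap r with DDIT3 was -0.26 for SLC1A5, -0.27 for SLC6A9, 0.08 for SLC1A4 and -0.35 for SLC38A2. For the other 5 it ran there from -0.20 for SLC7A5 to 0.54 for SLC43A1. With NQO1, a quinone reductase and NRF2 target, r was -0.91 for SLC6A9 and -0.84 for SLC1A4 above the gap, and 0.32 and 0.51 below it. For the remaining members it ran above the gap from -0.65 for SLC43A1 to 0.43 for SLC38A2. Below the gap it ran from -0.07 for SLC38A2 to 0.79 for SLC3A2. SLC38A2 had an r of 0.80 with DDIT4 above the gap and 0.11 below it. These values come from few arrays and are given as a description.

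**Figure D4:**
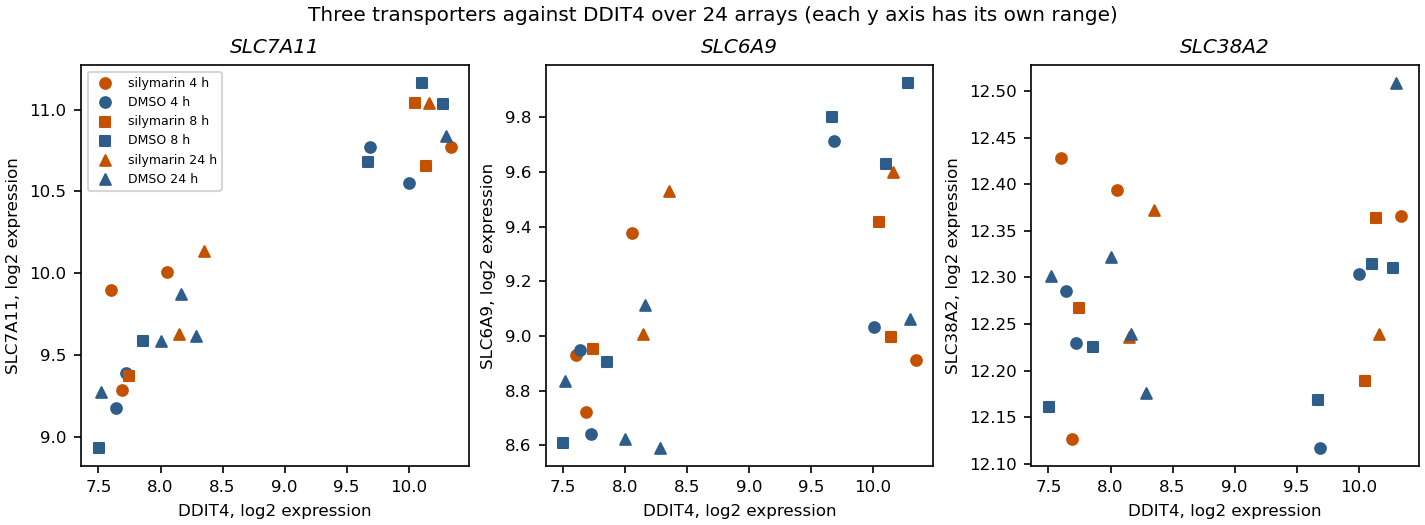
Log2 values of SLC7A11, SLC6A9 and SLC38A2 against that of DDIT4 in the 24 arrays, with colours for silymarin and DMSO and symbols for time in h. SLC7A11 lies between 10.55 and 11.16 in the 10 arrays with DDIT4 of 9.67 or more, and SLC38A2 shows no step.

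The genes most like each transporter over the 24 arrays were named by the 3 highest Pearson correlations among all genes. Arrays from both sides of the gap in DDIT4 enter these values. For SLC7A11 they were STC2, a secreted glycoprotein, at 0.97, MTHFD2, an enzyme of mitochondrial folate metabolism, at 0.97, and CHAC1, which breaks down glutathione, at 0.96. Their Spearman rho were 0.94, 0.93 and 0.93. Within the 10 arrays above the gap in DDIT4 their r with SLC7A11 were 0.62, 0.73 and 0.34. Within the 14 below it they were 0.88, 0.84 and 0.87. For SLC7A1 they were SLC7A11, the cysteinyl-tRNA synthetase CARS1 and MTHFD2, at 0.96, 0.95 and 0.94. For SLC1A4 they were ULBP1, a ligand of the NKG2D receptor, the alanyl-tRNA synthetase AARS1 and the mitochondrial PEP carboxykinase PCK2, at 0.98, 0.97 and 0.97.

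SLC6A9 was closest to SHMT2, which turns serine into glycine in mitochondria, to YARS1, the tyrosyl-tRNA synthetase, and to PHGDH, the first enzyme of serine synthesis, each at 0.93. SLC1A5 was closest to SHMT2 at 0.95, YARS1 at 0.92 and SLC7A5 at 0.90. SLC43A1 was closest to SLC1A4 at 0.95, ULBP1 at 0.95 and the seryl-tRNA synthetase SARS1 at 0.94. For SLC43A1 these r were 0.88, 0.89 and 0.90 above the gap in DDIT4 and 0.66, 0.63 and 0.50 below it. For SLC6A9 they were 0.97, 0.97 and 0.94 above the gap and 0.91, 0.87 and 0.83 below it.

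SLC7A5 was closest to SLC7A1 at 0.93, to MASP1, a protease of the lectin pathway of complement, at 0.91 and to SLC1A5 at 0.90. SLC3A2 was closest to SLC43A1 at 0.92, STC2 at 0.92 and IMPDH2, an enzyme of guanine nucleotide synthesis, at 0.91. For SLC3A2 these r were 0.75, 0.66 and 0.73 above the gap in DDIT4 and 0.66, 0.59 and 0.61 below it. For SLC38A2 the 3 highest were LPIN2, a phosphatidate phosphatase, SNAPC1, a factor for small nuclear RNA transcription, and MPHOSPH10, a ribosome biogenesis protein, at 0.76, 0.75 and 0.75. The number of genes with a Pearson r above 0.8 was 195 for SLC7A11, 190 for SLC1A4 and 187 for SLC43A1, and 0 for SLC38A2.

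The comparison of silymarin with DMSO asked whether the extract changed the transporters after a short, an intermediate or a long exposure. At 4 h silymarin minus DMSO ranged from -0.10 for SLC6A9 to 0.09 for SLC38A2, and 4 of the 9 differences lay above 0, as 47.5% of all genes did. The difference for SLC7A11 was 0.02 (SE 0.49, 95% interval -0.99 to 1.03). None passed limma's test, with adjusted p = 0.9999 for each, and 0% of all 18274 genes were called. At an unadjusted p under 0.05, 0 members stood against 2.48% of all genes. No member had silymarin arrays that lay entirely to one side of the DMSO arrays, as 2.18% of all genes did.

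At 8 h the differences ranged from -0.25 for SLC6A9 (SE 0.26) to 0.08 for SLC7A11 (SE 0.50), and 4 of the 9 lay above 0, against 42% of all genes. The lowest and highest of limma's adjusted p over the members were 0.991 and 0.995, and 0% of all genes were called. At an unadjusted p under 0.05, 0 members stood against 3.93% of all genes, and 0 members against 2.93% of genes had groups that did not overlap.

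At 24 h 8 of the 9 differences lay above 0, with a median of 0.34, where 56% of all genes lay above 0 with a median of 0.01. SLC6A9 averaged 9.38 ± 0.32 in silymarin arrays (SD, n = 3) and 8.85 ± 0.24 in DMSO arrays (SD, n = 5). It differed by 0.53 (SE 0.26, 95% interval 0.003 to 1.07), with unadjusted p = 0.0490 and adjusted p = 0.9997 by limma. SLC7A5 averaged 11.82 ± 0.19 in silymarin arrays (SD, n = 3) and 11.48 ± 0.24 in DMSO arrays (SD, n = 5). It differed by 0.34 (SE 0.16, 95% interval 0.01 to 0.67), with unadjusted p = 0.0453 and adjusted p = 0.9997 by limma. SLC7A1 differed by 0.52 (SE 0.30), SLC7A11 by 0.43 (SE 0.50) and SLC1A5 by 0.28 (SE 0.15). SLC38A2 differed by -0.03.

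None of the 9 passed at 24 h, where 0% of all genes were called, and no member had groups that did not overlap, against 1.95% of genes. The count of 2 members at an unadjusted p under 0.05 compares with 3.03% of all genes, but these members vary together over arrays and are not independent observations. Replicate 1 of the silymarin group and replicate 3 of the DMSO group had high DDIT4 at 24 h. Without the silymarin array the difference was 0.04 for SLC7A11, 0.14 for SLC1A4, 0.29 for SLC7A1, 0.25 for SLC7A5 and 0.42 for SLC6A9. Without the DMSO array it was 0.68, 0.48, 0.67, 0.42 and 0.59 for the same 5 genes, and without both it was 0.29, 0.26, 0.45, 0.34 and 0.48, the last chosen after seeing the data. None passed limma's test in these fits. The part of high DDIT4 in the result was not tested. Markers of endothelial cells lay above 0 at 24 h for 5 of 5 genes, with a median of 0.12, and the means of the list per array ran from 5.92 to 6.13 in silymarin arrays and from 5.66 to 6.04 in DMSO arrays. The angiopoietin receptor TEK differed by 0.30 (SE 0.10, unadjusted p = 0.00683 by limma), with groups that did not overlap, and VWF, a clotting factor of endothelium, by 0.19 (unadjusted p = 0.0494 by limma), with adjusted p = 0.9997 for both. TEK had the lowest mean of the list, 5.32, and 4 of the 5 lay below the 25th percentile of all genes. Their part in the result was not tested.

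Averaged over the 3 times, the difference ran from 0.04 for SLC38A2 to 0.17 for SLC7A11 and lay above 0 for 9 of 9 members, against 47.3% of all genes. These 9 are not independent observations. None passed, with adjusted p = 0.9999 by limma for each and 0% of all genes called, and 0 members had an unadjusted p under 0.05, against 2.83% of all genes. For SLC7A11 the 95% interval at 8 h ran from -0.96 to 1.12 on the log2 scale, so that a difference near 2-fold in either direction lay inside it.

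**Figure D5:**
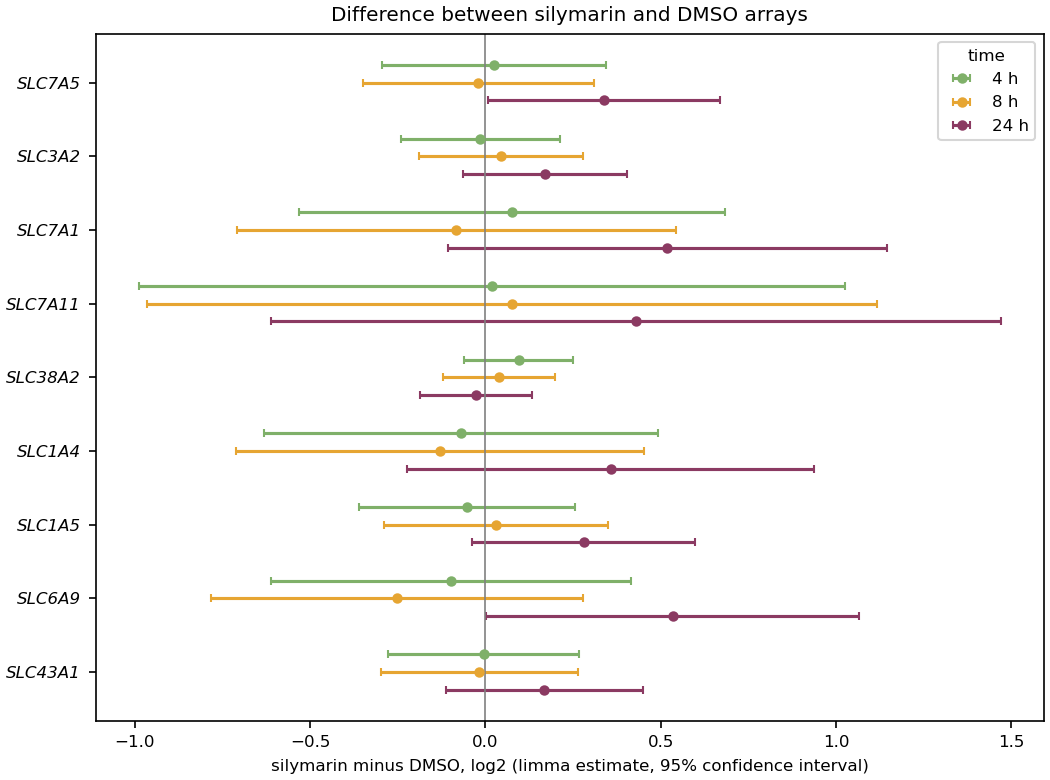
Silymarin minus DMSO (log2) for each of the 9 transporters at 4, 8 and 24 h, as points with 95% intervals from limma. Every interval includes 0 except those of SLC7A5 and SLC6A9 at 24 h, which start at 0.01 and 0.003 before adjustment.

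Changes with time were compared in the same model, and counts of members that vary together carry the same limit. The silymarin difference was larger at 24 h than at 8 h for 8 of the 9 members, against 59.3% of all genes, with a median change of 0.35. The widest change was that of SLC6A9, at 0.79 (SE 0.36), with unadjusted p = 0.0412 and adjusted p = 0.950 by limma. It was the 1 member at an unadjusted p under 0.05, against 4.08% of all genes. From 4 h to 24 h the difference grew for 8 of 9 members, against 54.9% of all genes, with a median of 0.33, and from 4 h to 8 h for 3 of 9, against 47.1%, with a median of -0.04. In these 0 members had an unadjusted p under 0.05, against 3.02% and 2.37% of all genes. No adjusted p passed in any of the 3 comparisons, with 0% of all genes called.

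Within DMSO arrays, 8 h lay above 4 h for 9 of 9 members with a median of 0.15, against 53.5% of all genes. The lowest of these 9 differences was 0.002, for SLC38A2. DMSO at 24 h lay above DMSO at 4 h for 1 of 9, SLC38A2, against 55.1%. Within silymarin arrays, 8 h lay above 4 h for 8 of 9 with a median of 0.14, against 51.2% of all genes, and 24 h lay above 4 h for 8 of 9 with a median of 0.26, against 59.2%. No member passed limma's test in these 4 comparisons, where 0% of all genes were called, and none had an unadjusted p under 0.05. The shares of all genes at that unadjusted level were 6.5% and 1.7% for DMSO at 8 h and 24 h, and 11.9% and 6.61% for silymarin. The silymarin group at 8 h held 2 arrays of 3 with high DDIT4 and that at 4 h held 1 of 4, and the part of this in the differences was not tested.

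Other lists, also chosen with earlier results of these data known, show which genes varied like the transporters. Among 38 further amino acid transporters the median standard deviation within groups was 0.13. Their median Pearson r with SLC7A11 was -0.15, with 4 of 38 above 0.6. These 4 were SLC38A7 at 0.82, SLC38A1 at 0.71, SLC38A10 at 0.67 and SLC15A4 at 0.64. The most variable of the 38 ran the other way. SLC6A14 had a standard deviation of 1.07 and an r of -0.50 with SLC7A11, SLC1A3, a glutamate carrier, 0.57 and -0.55, and SLC7A7, a light chain for cationic amino acids, 0.56 and -0.33. The 3 with the highest means were SLC38A1, SLC38A3 and SLC7A2, with r of 0.71, 0.34 and 0.45 with SLC7A11.

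Stress response genes varied more like SLC7A11. Of 27 targets of the integrated stress response 19 lay above the 90th percentile of standard deviation, the widest being DDIT4 at 1.23, CHAC1 at 1.21 and CTH, a cysteine-making enzyme, at 0.83. Their median r with SLC7A11 was 0.89, and 24 of 27 lay above 0.6, while TXNIP, an inhibitor of thioredoxin, had -0.89. Of 18 regulators the median r was 0.77, with 10 of 18 above 0.6 and ATF4 itself at 0.95. The regulators EIF2AK4, EIF2AK2 and ATF5 ran the other way, at -0.67, -0.54 and -0.37. The widest were DDIT3 at 0.61, NUPR1 at 0.50 and TRIB3, a pseudokinase that ATF4 and CHOP induce, at 0.43. All these r pool arrays from both sides of the gap in DDIT4. Above it r with SLC7A11 was 0.68 for ATF4, 0.33 for DDIT4, 0.34 for CHAC1, 0.63 for ASNS, 0.79 for TRIB3 and -0.14 for DDIT3. Below it the values were 0.70, 0.73, 0.87, 0.58, 0.60 and 0.17 in the same order.

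The NRF2 targets gave a mixed picture. Of 13, which include SLC7A11 itself, 9 lay above the 90th percentile, and the median r of the other 12 with SLC7A11 was 0.73. GCLM, a subunit of the enzyme that makes glutathione, had 0.79, while NQO1 had -0.17. Within the arrays above the gap in DDIT4, r with SLC7A11 was 0.34 for GCLM and -0.40 for NQO1. Within those below it the values were 0.14 and 0.28. HMOX1, the heme oxygenase, had a standard deviation of 0.43. Of 15 genes of leucine and mTORC1 sensing 4 lay above the 90th percentile, led by SESN2 at 0.55, RRAGC at 0.35 and SESN3 at 0.21, and their median r with SLC7A11 was 0.36.

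Between silymarin and DMSO no gene of these lists was called at any time. Of the 27 stress response targets 5 lay above 0 at 4 h, 11 at 8 h and 25 at 24 h, with medians of -0.07, -0.01 and 0.18. Of the 13 NRF2 targets 7, 11 and 12 lay above 0, with medians of 0.02, 0.15 and 0.06. Of all genes 47.5%, 42% and 56% lay above 0 at these times. Many genes of these lists vary together over arrays and are not independent observations. At an unadjusted p under 0.05 there were 0 of the stress response targets at each time, and of the NRF2 targets NQO1 alone at 8 h, with a difference of 0.40 (SE 0.16). NQO1 ran at 8 h from 8.94 to 9.20 with silymarin. With DMSO it ran from 8.10, the lowest value of all 24 arrays, to 9.03. The regulators had 0 of 18 at 4 h and at 8 h and 2 at 24 h, and the leucine and mTORC1 list had 0, 1 and 1 of 15, against 2.48%, 3.93% and 3.03% of all genes. The 2 regulators, named after their values were seen, were EIF2AK2, the eIF2alpha kinase PKR, at -0.24 (SE 0.11, unadjusted p = 0.0447 by limma), and EIF2AK4, the kinase GCN2 that senses amino acid shortage, at -0.18 (SE 0.09, unadjusted p = 0.0444 by limma). Silymarin arrays of both lay below all DMSO arrays at 24 h, against 1.95% of all genes with groups that did not overlap. Adjusted p was 0.9997 by limma for each. From the leucine list, also named after their values were seen, CASTOR1, an arginine sensor, differed by 0.20 at 8 h and SAMTOR, a sensor of S-adenosylmethionine, by -0.19 at 24 h. Silymarin arrays of CASTOR1 lay above all DMSO arrays at 8 h, against 2.93% of all genes with groups that did not overlap. At 24 h DDIT4 differed by 0.43 (SE 0.80), ASNS by 0.38 (SE 0.46), CHAC1 by 0.48 (SE 0.78) and TRIB3 by 0.51 (SE 0.28). The members' own difference and those of these genes rest on the same arrays.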

How the data were processed

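Per the submitters' processing notes, the authors deposited log2 values from RMA (background correction, quantile normalization, probe summary) in oligo, with no version given. They were used unchanged. Of 28869 probe sets, 19302 had 1 gene symbol in the platform annotation, 1729 had several and 7838 were not listed. The probe set with the highest mean was kept for each gene, which left 18274 genes.

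Group means of all 6 groups were estimated in a single limma model (limma 3.58.1, R 4.3.3) over 24 arrays, giving 18 residual and 5.04 prior degrees of freedom. Tests were two-sided, with Benjamini-Hochberg adjustment over all genes and a threshold of 0.05. Alternatives changed the normalization, the gene filter, the probe set rule, the limma settings, the arrays and the replicate block. The scripts were tested on simulated data. Figures were drawn with matplotlib 3.10.9. The labels and files gave no batch, slide or scan date. The members and gene lists were chosen with earlier results of these data known. Named genes were the 9 members, the 3 genes most correlated with each, the 3 most variable genes of each list, the 3 further transporters with the highest means and 8 stress response and NRF2 genes. Correlations on each side of the gap in DDIT4, and the fit at 24 h without the 2 arrays above it, were added after seeing the data.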

Additional observations from a re-analysis of the deposited data

How the results depend on the processing

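The differences between silymarin and DMSO for the 9 members at 4, 8 and 24 h and averaged over them, 36 values, were recomputed under 9 alternatives, which gave 324 values, and without each array in turn, which gave 432. None passed the threshold. Of the 324, 5 changed sign. With array weights SLC7A11 gave -0.47 at 8 h and -0.0017 averaged, SLC1A5 gave -0.12 at 8 h and SLC1A4 gave -0.033 averaged. With the replicate number as a block SLC43A1 gave 0.028 at 8 h. The labels do not say whether equal numbers pair the samples, and the values do not decide it. Deviations from group means in the 10 same-numbered pairs had r between -0.14 and 0.43, with 4 above 0.1. Of 10 silymarin arrays 3 were closest to their own number. With the replicate block 0 genes were called in every comparison. Over all genes limma called 0 in every comparison as reported, and 1 in each of 2 alternatives, RPE65 at 24 h with quantile normalization repeated and OTX2 for silymarin at 8 h against 4 h with array weights. Both were named after their values were seen. The causes were not tested.

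Without each array in turn, 48 of the 432 values changed sign. At 4 h the ranges were -0.038 to 0.15 for SLC7A5, -0.10 to 0.047 for SLC3A2, -0.11 to 0.24 for SLC7A1, -0.25 to 0.29 for SLC7A11, -0.19 to 0.12 for SLC1A4, -0.15 to 0.033 for SLC1A5, -0.25 to 0.11 for SLC6A9 and -0.065 to 0.072 for SLC43A1. At 8 h they were -0.18 to 0.076 for SLC7A5, -0.0062 to 0.087 for SLC3A2, -0.30 to 0.17 for SLC7A1, -0.27 to 0.57 for SLC7A11, -0.0074 to 0.080 for SLC38A2, -0.33 to 0.089 for SLC1A4, -0.13 to 0.12 for SLC1A5 and -0.097 to 0.084 for SLC43A1. At 24 h SLC38A2 ranged from -0.072 to 0.023. Without both arrays of high DDIT4 at 24 h, chosen after seeing the data, SLC38A2 gave 0.045 there and 0 genes were called. Averaged over the times, SLC1A4 ranged from -0.020 to 0.13 and SLC6A9 from -0.0027 to 0.13. With the mean of both probe sets of SLC1A5, its r with DDIT4 was 0.56. The 24 arrays and their wide spread limit what differences could be seen.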
